A study of Mus musculus with 24 samples.

Results

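The cytosolic ribosomal protein genes were followed through mouse leukaemia cells in which the histone methyltransferase DOT1L or a partner of its complex had been targeted. They were taken by symbol: protein-coding genes of the GENCODE M21 annotation named Rpl or Rps with a number, with Rpsa, Rplp0, Rplp1 and Rplp2. Of 102 protein-coding genes with such symbols, 10 S6 kinase genes, 5 symbols ending in l and 6 symbols marked -ps, as pseudogenes are, were left out. That left 81 of the 43629 genes in the table: 43 of the large subunit, 31 of the small subunit, the 3 stalk proteins, 3 paralogs (Rpl22l1, Rpl7l1 and Rps27rt) and Rps19bp1, whose product binds the Rps19 protein and is not part of the ribosome. A further 246 entries carry ribosomal protein pseudogene symbols and are not protein coding.

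A ribosome is built from ribosomal RNA and a fixed set of ribosomal proteins, so cells need these mRNAs in large and matched amounts. In vertebrates the mRNAs typically begin with a cytosine and a run of pyrimidines, the terminal oligopyrimidine (TOP) motif, through which mTOR signalling and the RNA-binding protein LARP1 control their translation. The genes have scattered many processed pseudogenes and retrogenes through mammalian genomes, which makes short reads hard to assign. In the blood lineage, reduced dosage of several of them is known for causing anaemia in humans, as with RPS19 in Diamond-Blackfan anaemia and RPS14 in myelodysplasia with deletion of the long arm of chromosome 5.

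RNA sequencing covered 24 libraries in 8 groups of 3, all from a mouse acute myeloid leukaemia line that expresses Cas9 and is labelled MLLAF9, the name of a fusion oncogene of this leukaemia. The groups were a DOT1L knockout, MLLT10 knockouts with guide 1 and guide 2, MLLT1 knockouts with guide 1 and guide 2, MLLT6 knockouts with guide 1 and guide 2, and a non-targeting control. Guides were delivered by lentivirus (MOI 0.3), puromycin selection at 2 ug/ml lasted 72 hours from hour 48 on, and RNA was taken on day 9. The titles number no guides for DOT1L or the control, and the descriptions give each of them the same tag in all replicates, so an effect of the gene and one of a particular guide cannot be told apart for them, and the labels do not say that replicates were separate cultures, so that p-values measure a spread that may be technical.

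The start region of each gene is shown because it holds the TOP motif by which this family is known. RefSeq (GRCm38.p6) start windows, from 20 bases before the annotated start to 20 bases from it on, were found for 61 of the 81 genes. They were searched on the gene's strand for a C at the annotated start followed by at least 4 pyrimidines, and for a run of at least 8 pyrimidines that begins with C anywhere in the window; the 2 can overlap. The first was present in 14 of 61 ribosomal protein genes (23%) and in 3.01% of 27025 genes, and the second in 29 (47.5%) and in 14.5%. The windows below belong to genes on which the results turn: 4 that fell in the DOT1L knockout (Rps26, Rpl14, Rpl12, Rps28) and 2 that differed between replicate numbers (Rps6, Rpl22l1). Capitals mark the pyrimidine run.
Rps26, chr10:128626487-128626526, minus strand: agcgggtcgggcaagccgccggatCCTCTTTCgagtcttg
Rpl14, chr9:120571497-120571536, plus strand: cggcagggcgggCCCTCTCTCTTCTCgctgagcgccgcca
Rpl12, chr2:32961692-32961731, plus strand: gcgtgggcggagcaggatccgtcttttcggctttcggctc
Rps28, chr17:33824543-33824582, minus strand: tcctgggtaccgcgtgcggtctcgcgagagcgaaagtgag
Rps6, chr4:86857348-86857387, minus strand: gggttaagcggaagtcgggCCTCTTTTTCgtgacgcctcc
Rpl22l1, chr3:28805488-28805527, plus strand: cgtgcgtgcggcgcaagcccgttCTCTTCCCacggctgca
Of these 6, the run crosses the annotated start in Rpl14 and Rps6, lies after it in Rps26 and Rpl22l1, and no such run is in the windows of Rpl12 and Rps28. A match describes the letters of the window only.

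Library totals ranged from 2403044 to 7415397 counts. Levels are given as CPM, counts scaled to a common library size after edgeR's TMM correction for library composition. Myeloid leukaemia markers were present in every library, with 7 of 7 detected. They summed to 3210 to 3480 CPM in the DOT1L knockout and 1000 to 1070 CPM in the control. The sum hides a split, as edgeR called 3 of the 7 higher and 2 lower in the DOT1L knockout. Of all tested genes, 11.2% were called higher and 10.7% lower. B cell markers were at 0 throughout, and T cell, erythroid and epithelial markers summed to at most 3.47 CPM. Fibroblast markers summed to 14.6 to 20 CPM in the DOT1L knockout against 0 to 1.25 CPM in the control, with Col1a1 called higher, and endothelial markers to 158 to 192 CPM against 347 to 455 CPM, with Pecam1 called lower (edgeR adjusted p = 1.6e-05 and 0.0138). Neutrophil markers summed to 89400 to 102000 CPM in the DOT1L knockout against 253 to 357 CPM in the control. Dot1l mRNA itself was at 49.1, 41.6 and 43.3 CPM in its knockout, against 69.7, 75.1 and 73.9 CPM in the control. Mllt10 and Mllt6 were at 7.98 to 12.1 CPM and 14.9 to 23.3 CPM in their knockouts, below all control libraries (14.7 to 19.1 CPM and 30.1 to 42.2 CPM). Neither was called in its own knockout against the control by edgeR, and Mllt6 was called lower in the DOT1L knockout. Mllt1, at 34.95 to 69.3 CPM, was not lower in its own knockout than in the control (21.8 to 41.2 CPM). Its libraries are therefore called libraries labelled MLLT1. That name rests on mRNA alone, and loss of the protein was not measured here for any target. MLLT6 guide 1 replicate 3 and the library labelled MLLT1 guide 1 replicate 1 stood apart, with a median Spearman correlation with the others of 0.941 and 0.952, against 0.956 to 0.974 in the remaining libraries outside the DOT1L knockout (0.917 to 0.926).

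In the control, the counted level of ribosomal protein genes spanned a wide range. Per kilobase of exon, Rplp1, a protein of the stalk that recruits translation factors, stood highest at 11800 CPM per kb. Rps21 followed at 10800, Rpl37 at 9880 and Rps29 at 8000 CPM per kb. At the low end were Rps6, the small-subunit protein that S6 kinases phosphorylate, at 48.7, Rpl15 at 21.8, Rpl24 at 10.3 and Rpl23a at 2.38 CPM per kb. All 4 of the lowest encode core ribosomal proteins, and their sequences were examined for copies elsewhere.

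Each gene's main GENCODE mRNA was cut into all words of 50 bases, and the share of words found in a transcript of any other gene was taken as a measure of how much sequence a read could not place. Rpl23a, with 1.33 ± 0.963 CPM in the control (SD, n = 3), shares 85.7% of its words with 29 genes, and its named pseudogenes hold 10272 counts over all libraries, against 164 counts at Rpl23a. Rps6 shares 84.6%, Rpl24 81.7% and Rpl15 75.2%. Of the 81 genes, 50 share at least 50% of their words, 24 share 10 to 50% and 7 share less than 10%, and the medians of their levels were 812, 1670 and 796 CPM per kb. Across the 81 genes, Spearman's rho between the shared percentage and the level was -0.3, a description over genes of the same libraries. Levels of highly shared genes are uncertain, as the sources used here do not say how reads with several matches were counted. Genes with as much sharing were also counted at high levels: Rpl3 shares 85.6% and stood at 1270 CPM per kb, and Rps27, at 98.6%, had 552, 864 and 1019 CPM in the control. Exons of 18 of the genes also overlap another gene, on the opposite strand in 15 (among them Rpl12 with Lrsam1 and Rps28 with Kank3). Without a stated strand setting, reads from opposite strands cannot be told apart. Rpl24, among the lowest levels, overlaps Gm28037 on the same strand, where a strand setting would not separate the reads. The part of this overlap in its level was not tested.

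**Figure D1:**
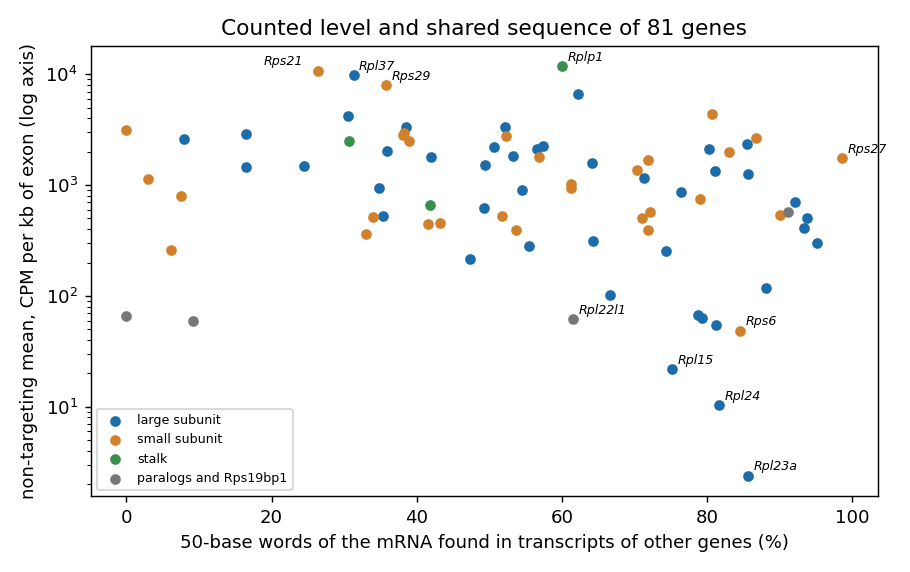
Level of each of the 81 genes in the control (mean of 3 libraries, CPM per kb of exon, log axis) against the percentage of 50-base words of its mRNA that occur in transcripts of other genes. The lowest genes, Rpl23a, Rpl24, Rpl15 and Rps6, share 75.2% to 85.7% of their words, while Rps27, at 98.6%, lies at 1760 CPM per kb.

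In the DOT1L knockout the summed level of the family was lower in every library, by a modest amount. The 81 mRNAs summed to 97978, 104955 and 98082 CPM in DOT1L knockout libraries, against 115206, 132132 and 115770 CPM in the control. Every DOT1L library lay below every control library, with means of 100338 ± 4000 CPM and 121036 ± 9610 CPM (SD, n = 3 each). As a share of raw counts, they took 8.54 to 9.03% in the DOT1L knockout against 11.5 to 13.5% in the control. In the same libraries S100a8 and S100a9, the neutrophil calprotectin genes, took 6.07 to 6.63% of counts in the DOT1L knockout and 0.011 to 0.0187% in the control. All 5 neutrophil markers were called higher (median log2 fold change 9.10). The part of the neutrophil and other markers in the lower ribosomal protein levels was not tested, and in bulk RNA fewer cells of a type and less RNA per cell cannot be told apart.

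**Figure D2:**
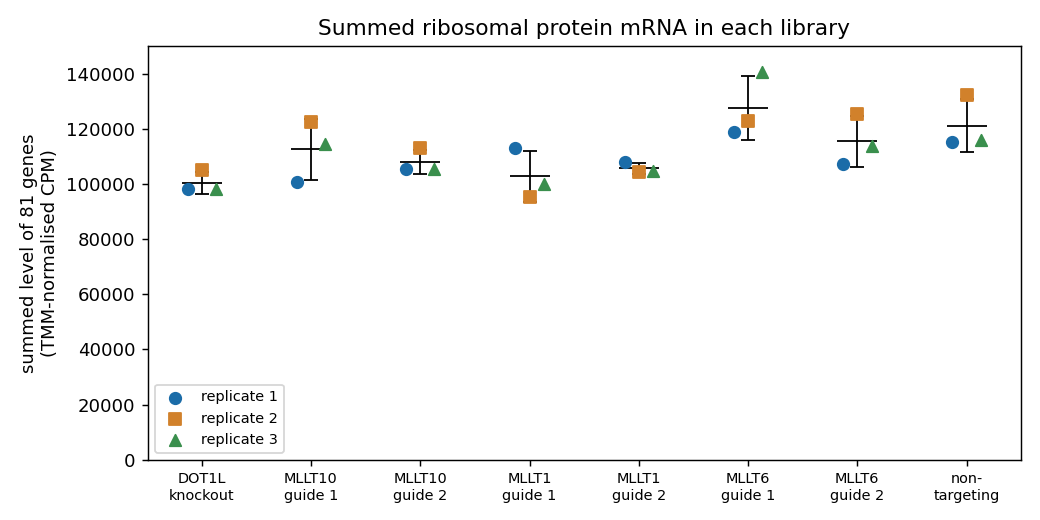
Summed level of the 81 genes in each library, in TMM-normalised CPM, with the mean and SD of each group of 3. The 3 DOT1L libraries sit between 97978 and 104955 CPM, below the 3 control libraries at 115206 to 132132 CPM, while the MLLT6 libraries reach 140664 CPM.

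Of the 81 genes, 80 passed the filter on low counts, all but Rpl23a. In the DOT1L knockout, 76 of the 80 had a lower fitted level than in the control (95%, against 49.5% of all 10578 tested genes). The median log2 fold change was -0.32 (interquartile range -0.41 to -0.13), and the median of all tested genes was 0.01. In 28 of the 80 (35%), every DOT1L library lay below every control library, where the background of all tested genes was 18.6%. None lay wholly above, against 19.6% of all tested genes. Single-gene calls were few: 7 fell and none rose (edgeR's quasi-likelihood test, Benjamini-Hochberg adjusted p under 0.05 over all tested genes). That is 8.75% of the 80 called lower, near the background of 10.7% of all tested genes, and none called higher, where the background was 11.2%. Leaving out 1 library at a time gave 14 calls without control replicate 1 and 5 without control replicate 3. It gave 3 and 4 without DOT1L replicates 1 and 2. It gave 1 call without control replicate 2 or without DOT1L replicate 3. For these fits the share of all tested genes called is not given here, so the counts describe the members alone.

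Lower fitted levels were found in both subunits. In the DOT1L knockout against the control, 31 of 31 small-subunit genes had a lower fitted level (median log2 fold change -0.33, 3 called), as had 40 of 42 tested large-subunit genes (-0.29, 4 called) and 3 of 3 stalk genes (-0.38, none called). By shared sequence, the median was -0.36 for 24 genes that share 10 to 50% of their words, -0.31 for 49 that share at least 50%, and -0.14 for 7 that share less than 10%. Genes with the TOP motif at the annotated start had a median of -0.30 (14 genes) and the other matched genes -0.29 (47 genes). Some of the others, such as Rpl4 and Rps25, hold a pyrimidine run elsewhere in the window. The split therefore need not separate TOP mRNAs from other mRNAs.

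Rps26 (ENSMUSG00000025362, GRCm38 chromosome 10, 128624534 to 128626747), a small-subunit protein at the site where mRNA leaves the ribosome, had the largest fall among the called genes. It stood at 1371, 1289 and 1342 CPM in DOT1L knockout libraries, against 1958, 2020 and 2032 CPM in the control. The groups were far apart relative to their spread, with means of 1334 ± 41.5 and 2003 ± 39.4 CPM (SD, n = 3 each). The log2 fold change was -0.59 ± 0.16 (SE; edgeR's quasi-likelihood test, Benjamini-Hochberg adjustment, adjusted p = 0.00862). It was called in 13 of 13 alternative settings, with adjusted p from 0.00173 to 0.037. The other 6 calls were each lost in 4 to 6 of the 13 settings.

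Rps28 (chromosome 17, 33819027 to 33824562), another small-subunit protein, had the tightest values. It was at 1266, 1245 and 1242 CPM in DOT1L knockout libraries, against 1605, 1678 and 1568 CPM in the control, so that the groups did not overlap. Its fitted change was -0.37 ± 0.11 log2 units (edgeR adjusted p = 0.0209).

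The 4 large-subunit genes that fell included Rpl3, whose protein reaches toward the peptidyl transferase centre, and Rpl12, a protein at the base of the stalk. Rpl3 (chromosome 15, 80077791 to 80091868) was at 1088, 1348 and 1135 CPM in DOT1L knockout libraries, against 1349, 2042 and 1743 CPM in the control. The groups nearly touched, since DOT1L replicate 2 lay just below control replicate 1. The fitted change was -0.52 ± 0.18 log2 units (edgeR adjusted p = 0.0342). Rpl12 (chromosome 2, 32961559 to 32965345) was at 1414, 1488 and 1328 CPM in DOT1L knockout libraries, against 1943, 1993 and 1754 CPM in the control, without overlap (log2 fold change -0.43 ± 0.14, edgeR adjusted p = 0.0317).

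Rpl14 and Rpl21 encode further large-subunit proteins and were counted at a lower level. Rpl14 (chromosome 9, 120571444 to 120574654) was at 473, 438 and 453 CPM in DOT1L knockout libraries, against 608, 688 and 575 CPM in the control. Every DOT1L value was lower (log2 fold change -0.46 ± 0.15, edgeR adjusted p = 0.0298). Rpl21 (chromosome 5, 146832890 to 146837032), which shares 55.5% of its words with 82 genes, was at 467, 546 and 468 CPM in DOT1L knockout libraries, against 693, 732 and 613 CPM in the control. These groups did not overlap either (log2 fold change -0.46 ± 0.16, edgeR adjusted p = 0.0392).

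**Figure D3:**
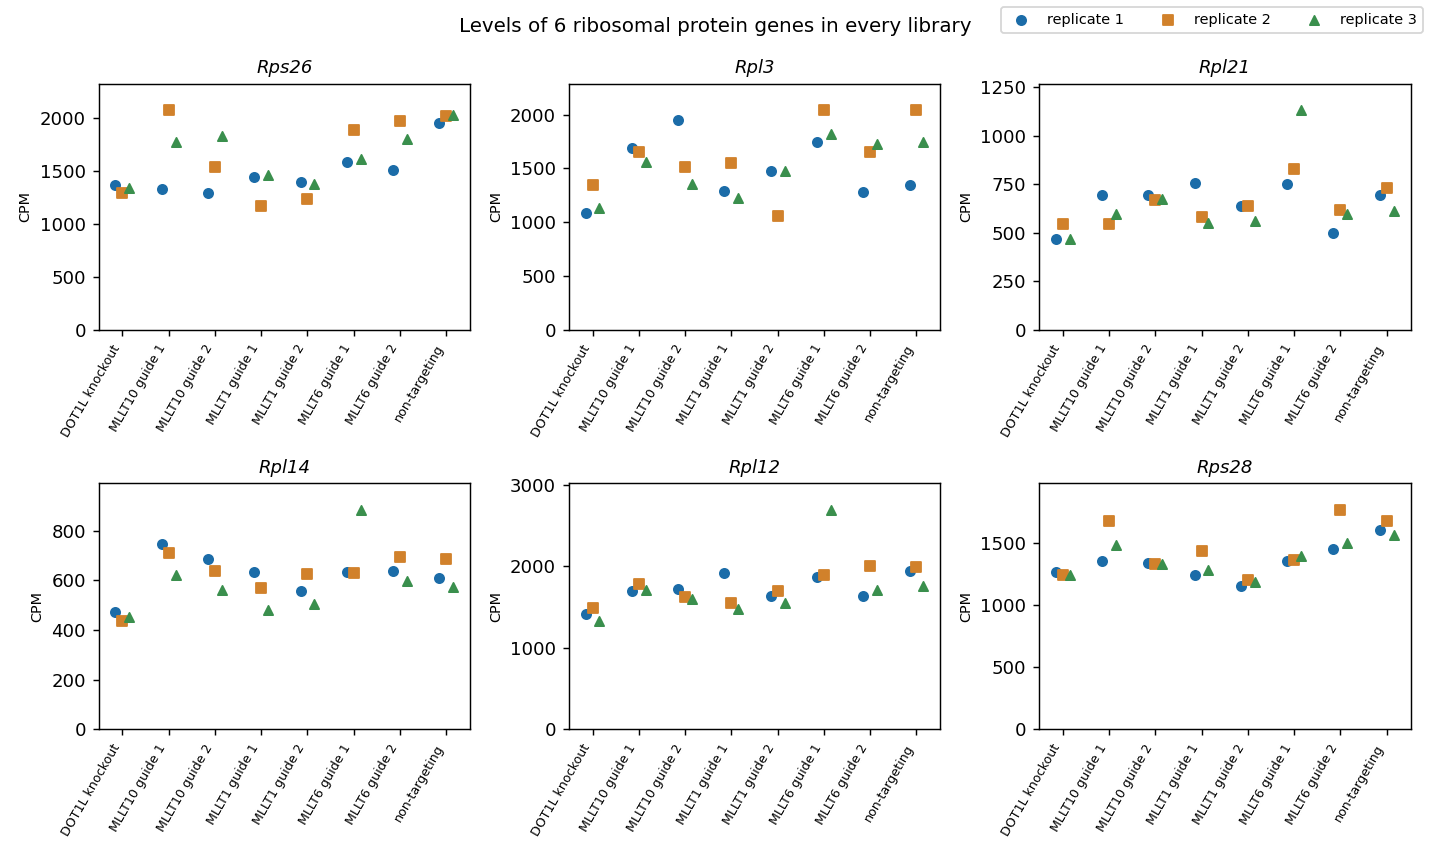
CPM in every library for 6 genes, 1 panel each, with groups along the axis and replicates 1 to 3 as symbols; all 6 fell in the DOT1L knockout. Rps26 sits at 1289 to 1371 CPM in the DOT1L libraries and at 1958 to 2032 CPM in the control, and the libraries labelled MLLT1 lie between 1172 and 1461 CPM.

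Rps14, Rps19, Rpsa, Rpl5, Rpl11 and the stalk genes, picked for their known roles, had values below 0 in the DOT1L knockout and did not pass the test. Rps14 was at 2063, 2195 and 2101 CPM in DOT1L knockout libraries, against 2505, 3592 and 3386 CPM in the control. The groups did not overlap, but the gene varied widely within other groups, and its fitted change was -0.58 ± 0.36 log2 units (edgeR adjusted p = 0.279). Rps19 had a log2 fold change of -0.36 ± 0.15 (adjusted p = 0.101), and Rpsa, also known as the laminin receptor, of -0.13 ± 0.16 (edgeR adjusted p = 0.626). Rpl5 and Rpl11, which bind Mdm2 when ribosome assembly fails, had values of -0.27 ± 0.17 and -0.22 ± 0.15 (edgeR adjusted p = 0.278 and 0.322). The stalk genes Rplp0, Rplp1 and Rplp2 stood at -0.43, -0.34 and -0.38 (edgeR adjusted p = 0.0755, 0.247 and 0.136). The 4 genes with a higher fitted level were Rps19bp1 (0.36 ± 0.25), Rpl7a (0.24 ± 0.18), Rpl7l1 (0.18 ± 0.17) and Rpl13 (0.03 ± 0.30), none past the threshold (edgeR adjusted p = 0.359, 0.398, 0.499 and 0.96).

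Related genes outside the family were read from lists. Among ribosomal proteins under other names, Fau (small-subunit protein S30) had a log2 fold change of 0.46 ± 0.35 and Rack1 of -0.12 ± 0.16 in the DOT1L knockout (edgeR adjusted p = 0.393 and 0.68). Of 20 translation factors and other mRNAs known to carry a TOP motif, 3 fell and none rose, where 10.7% of all tested genes were called lower and 11.2% higher. They were the initiation factor subunit Eif3f (-0.70 ± 0.15, edgeR adjusted p = 0.00147), the elongation factor subunit Eef1b2 (-0.46 ± 0.13, adjusted p = 0.0125) and the helicase cofactor Eif4b (-0.61 ± 0.19, adjusted p = 0.0221). The list's median was -0.21, with 17 of 20 lower. Of 5 tested snoRNA host genes, Gas5 fell, by 0.51 on the log2 scale (SE 0.18, edgeR adjusted p = 0.0395), with a list median of -0.46. Of 73 tested mitochondrial ribosomal protein genes, which serve a separate ribosome, only Mrps16 passed, at -0.74 ± 0.18 (edgeR adjusted p = 0.0047). The median of that list was -0.02, with 39 of 73 lower.

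Of 10 tested regulators of ribosomal protein production, 1 fell in the DOT1L knockout (background 10.7%). Eif4ebp1, an inhibitor of cap-dependent translation that mTOR phosphorylates, was at 99.6, 98.8 and 88.4 CPM in DOT1L knockout libraries, against 170.2, 262 and 233 CPM in the control. All DOT1L values were lower, and it fell by 1.22 ± 0.23 on the log2 scale (edgeR adjusted p = 0.000322). Myc, a known activator of ribosome production, stood at 0.37 ± 0.75 log2 units (edgeR adjusted p = 0.788). None of 5 tested chaperones of ribosomal proteins passed (median 0.26).

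Of 3 tested paralogs that the symbol rule left out, 1 rose (background 11.2%). Rpl3l, a muscle-enriched paralog of Rpl3, was at 12.3, 11.4 and 18 CPM in DOT1L knockout libraries, against 4.95, 6.57 and 5.06 CPM in the control. It rose by 1.33 ± 0.42 on the log2 scale (edgeR adjusted p = 0.0243), while Rpl3 fell. Rpl36al had -0.34 ± 0.14 (adjusted p = 0.0785) and Rps27l, a p53 target, -0.16 ± 0.13 (edgeR adjusted p = 0.431).

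In the libraries labelled MLLT1 the family also lay mostly below the control. Against the same 3 control libraries, 71 of 80 genes had a lower fitted level (88.8%, against 49.1% of all tested genes), with a median log2 fold change of -0.20. In the same comparison 5 of 5 neutrophil markers were called higher with edgeR (median 3.18), at a summed 1690 to 2230 CPM against 253 to 357 CPM in the control, and their part in the lower levels was not tested. The 6 libraries summed to 112876, 95197 and 100027 CPM for guide 1 and to 107954, 104220 and 104665 CPM for guide 2, each below the lowest control library at 115206 CPM. In 11 of 80 (13.8%), all 6 libraries lay below all control libraries, where the background was 4.30%. Calls numbered 2 of 80 (2.50%), against a background of 1.61% called lower.

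Both called genes belong to the small subunit. Rps26 was at 1443, 1172 and 1461 CPM for MLLT1 guide 1, at 1394, 1237 and 1381 CPM for guide 2, against 1958, 2020 and 2032 CPM in the control. The groups were separate, with a fitted change of -0.57 ± 0.13 log2 units (edgeR adjusted p = 0.0199). The call was lost without control replicate 2 (adjusted p = 0.104), without control replicate 3 (edgeR adjusted p = 0.124) and with the compared groups fitted alone (edgeR adjusted p = 0.0544). Rps28 was at 1244, 1437 and 1284 CPM for guide 1, at 1159, 1203 and 1192 CPM for guide 2, against 1605, 1678 and 1568 CPM in the control. Its fitted change was -0.37 ± 0.10 log2 units (edgeR adjusted p = 0.0421), and the call held in 5 of 16 alternative settings.

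The largest other values in libraries labelled MLLT1 did not pass. Rps14 ranged from 1106 to 2455 CPM there and from 2505 to 3592 CPM in the control, without overlap, at -0.67 ± 0.30 log2 units (edgeR adjusted p = 0.283). Rps29 had -0.58 ± 0.19 (edgeR adjusted p = 0.113). The highest values were those of Rps19bp1 at 0.26, Rpl7a at 0.18 and Rpl15 at 0.14. None of the TOP mRNA, snoRNA host, mitochondrial ribosomal protein, chaperone or regulator genes passed against the control.

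With MLLT10 guides no ribosomal protein gene was called (edgeR's quasi-likelihood test, Benjamini-Hochberg adjustment). The DESeq2 test also called 0, edgeR with no filter on low counts called 3, and 13 were lower at an unadjusted p under 0.05. Of all 10578 tested genes, 0.473% were called in this comparison, and 1013 were at an unadjusted p under 0.05 in either direction. The fitted level was lower than in the control in 58 of 80 genes (72.5%, against 49.6% of all tested genes) and the median log2 fold change was -0.16. Beside this, 4 of 5 neutrophil markers were called higher with edgeR (median 1.81), at a summed 690 to 974 CPM against 253 to 357 CPM in the control; their part was not tested. Sums were 100797, 122466 and 114331 CPM with guide 1 and 105465, 112987 and 105454 CPM with guide 2, so that the MLLT10 libraries overlapped the control. All MLLT10 libraries were below all control libraries in 4 of 80 genes (5.00%, background 2.93%). The largest values were Rpl22l1 at -0.87 ± 1.04, Rps14 at -0.64 ± 0.30 and Rpl30 at -0.58 ± 0.20 (edgeR adjusted p = 0.844, 0.511 and 0.273). On the other side stood Rpl7a at 0.28 ± 0.16, Rps19bp1 at 0.28 ± 0.22 and Rpl38 at 0.28 ± 0.20. Without control replicate 2 the family's median was -0.035.

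With MLLT6 guides the family's median was the nearest to 0 of the 4 comparisons. No member was called by edgeR's or the DESeq2 test, and none of the 10578 tested genes was called by edgeR (0.0%). With edgeR, 4 members were lower and 1 was higher at an unadjusted p under 0.05. Of all tested genes, 727 were at such an unadjusted p in either direction. With no filter on low counts, edgeR called 1 member. None of 5 neutrophil markers was called, at a summed 235 to 654 CPM with MLLT6 guides. The median log2 fold change was -0.05, with 46 genes lower and 34 higher, and it was 0.032 without control replicate 2. Sums were 118697, 122868 and 140664 CPM with guide 1 and 107075, 125315 and 113772 CPM with guide 2, on both sides of the control libraries. All MLLT6 libraries lay below the control in 1 of 80 genes (1.25%, background 1.34%) and above it in 1 (1.25%, background 1.02%). The largest values were those of Rpl22l1 (-1.61 ± 1.07), Rps6 (-0.59 ± 0.63) and Rps16 (-0.48 ± 0.26). The highest were Rps27rt (0.56), Rpl17 (0.51 ± 0.37) and Rpl13 (0.43 ± 0.26).

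**Figure D4:**
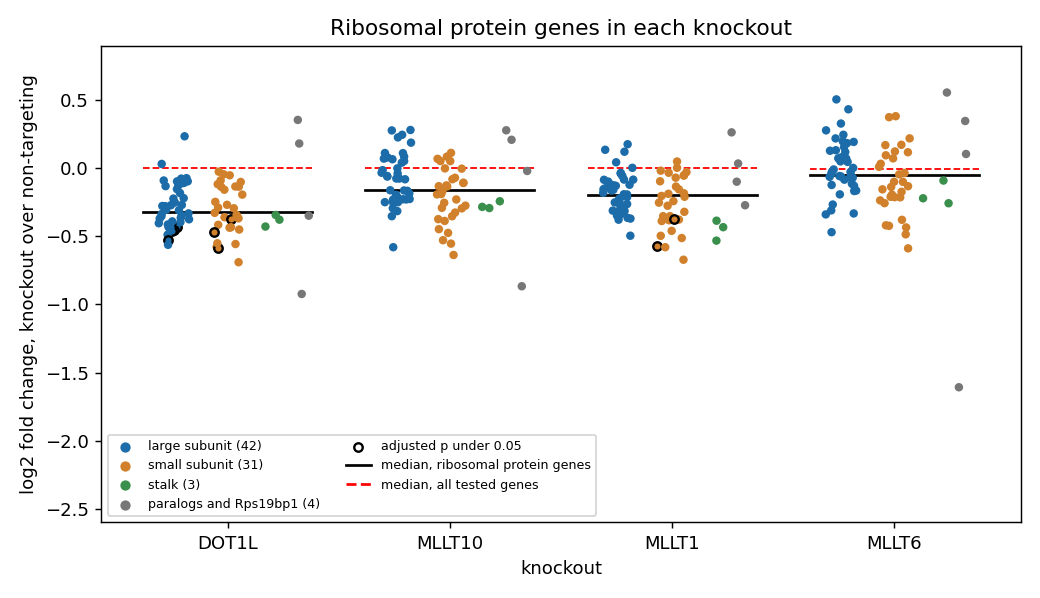
Log2 fold change of each of the 80 tested genes in each knockout over the same 3 control libraries, coloured by class, with black rings for adjusted p under 0.05 and lines for the medians of the family and of all tested genes. The family's median lies at -0.32 for DOT1L, -0.16 for MLLT10, -0.20 for libraries labelled MLLT1 and -0.05 for MLLT6, and rings are present for DOT1L (7) and MLLT1 (2).

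Since all 4 comparisons share the control libraries, the knockouts were also compared with each other. Against the DOT1L knockout, 9 genes were higher with MLLT6 guides (11.2%, background 14% of all tested genes) and 70 of 80 had a higher fitted level (median log2 fold change 0.24). With MLLT10 guides 4 were higher (5.00%, background 10.9%) and 65 of 80 had a higher fitted level (median 0.16). None was called in the libraries labelled MLLT1 against the DOT1L knockout by edgeR or the DESeq2 test. The background there was 19.6% called by edgeR, and the family's median was 0.09. At an unadjusted p under 0.05, 2 members were higher with edgeR, where 3135 of all 10578 tested genes passed in either direction. None of the shares called exceeded the background. All 5 neutrophil markers were lower than in the DOT1L knockout in each of these comparisons, and their part was not tested.

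Rpl14, with the smallest adjusted p of these calls, was at 748, 710 and 621 CPM for MLLT10 guide 1 and 686, 636 and 560 CPM for guide 2, against 473, 438 and 453 CPM in the DOT1L knockout. With MLLT6 it was at 634, 629 and 884 CPM for guide 1 and at 638, 692 and 596 CPM for guide 2. All 12 values exceeded those of the DOT1L knockout, by 0.54 ± 0.13 log2 units for MLLT10 (edgeR adjusted p = 0.0041) and by 0.58 ± 0.13 for MLLT6 (edgeR adjusted p = 0.00177). Both calls held in 16 of 16 alternative settings.

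Rpl21 was higher by 0.54 ± 0.14 with MLLT6 guides than in the DOT1L knockout (edgeR adjusted p = 0.00476), at 754, 826 and 1133 CPM for guide 1 and 499, 620 and 594 CPM for guide 2, against 467, 546 and 468 CPM in the DOT1L knockout. The groups overlapped, since MLLT6 guide 2 replicate 1 lay below DOT1L replicate 2. For MLLT10 the difference was 0.39 ± 0.14 (edgeR adjusted p = 0.0472), kept in 7 of 16 settings. Rpl3 was higher by 0.44 ± 0.16 with MLLT10 and by 0.52 ± 0.16 with MLLT6 (edgeR adjusted p = 0.0401 and 0.014). Further calls for MLLT6 against DOT1L were Rpl12, Rpl19, Rpl36a, Rps26 and Rps10, with log2 fold changes of 0.37 to 0.48.

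Between the other knockouts no ribosomal protein gene was called by edgeR among genes that passed the filter on low counts. With no filter it called 5 for libraries labelled MLLT1 against MLLT6 and 1 for MLLT10 against MLLT6, and a fit with a replicate block called 2 for libraries labelled MLLT1 against MLLT6. In libraries labelled MLLT1 against MLLT6, the family's median was -0.18, and the DESeq2 test called 5 (background for edgeR 4.46% called). At an unadjusted p under 0.05, 24 of the 80 were lower, where 2103 of all 10578 tested genes passed in either direction. For MLLT10 against libraries labelled MLLT1 the median was 0.07, and for MLLT10 against MLLT6 it was -0.12. The DESeq2 test called 0 members in both, and edgeR called 2.68% and 0.766% of all tested genes. At an unadjusted p under 0.05 were 6 and 2 of the 80, against 1372 and 1104 of all 10578 tested genes.

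No difference between the guides of a gene passed edgeR's test for a member that passed the filter, while with no filter 2 were called for MLLT6. Guide 2 against guide 1 gave 0 calls for MLLT10, MLLT1 and MLLT6 with edgeR (background 0.0% in each). The DESeq2 test called 0, 0 and 1 members. At an unadjusted p under 0.05 with edgeR were 3, 2 and 8 members, against 182, 222 and 983 of all 10578 tested genes. Against the control, the median was -0.18 with MLLT10 guide 2 and -0.09 with guide 1. It was -0.18 with MLLT1 guide 2 and -0.23 with guide 1, and -0.08 with MLLT6 guide 2 and 0.01 with guide 1.

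A difference of another kind ran along the replicate numbers, which the labels share across all groups without saying what they mark. The replicate 1 libraries were compared with replicates 2 and 3 in a fit that also held the groups. In replicate 1, 5 ribosomal protein genes were lower (6.25%, background 7.03%) and 1 was higher (1.25%, background 6.07%). These genes were named after their values were seen. Rpl22l1, the paralog of Rpl22, was at 2.02 to 7.43 CPM (median 3.34) in the 8 replicate 1 libraries, at 2.43 to 27.1 CPM (median 14.1) in replicate 2 and at 1.24 to 91.4 CPM (median 49.9) in replicate 3. The lowest replicate 3 value belonged to MLLT6 guide 1 replicate 3, a library that stood apart, and the next lowest was 30.8 CPM, in the DOT1L knockout. The log2 fold change of replicate 1 over the others was -2.61 ± 0.48 (edgeR adjusted p = 0.00185). Rpl22 itself stood at -0.03 ± 0.07 (edgeR adjusted p = 0.845).

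Rps6 showed a like pattern, at 3.70 to 29.2 CPM (median 20.7) in replicate 1, 16.8 to 45.9 CPM (median 39.2) in replicate 2 and 10.5 to 78.6 CPM (median 59.2) in replicate 3. Again the lowest replicate 3 value was that of MLLT6 guide 1, and the fitted change was -1.21 ± 0.31 log2 units (edgeR adjusted p = 0.0128). Rps24 and Rps27a, whose product is a fusion of ubiquitin with a small-subunit protein, each had a log2 fold change of -0.46 (SE 0.077 and 0.10, edgeR adjusted p = 0.000777 and 0.00544). These 4 calls held in 29 of 29 alternative settings. Rpl39 (-0.22 ± 0.073, edgeR adjusted p = 0.0466) held in 10 of 29, and Rps19bp1 was higher in replicate 1 (0.35 ± 0.11, edgeR adjusted p = 0.0321) and held in 21. Myc did not pass, with medians of 44.5, 49.6 and 131 CPM in replicates 1, 2 and 3 and its lowest replicate 3 value, 8.99 CPM, in the same MLLT6 library (edgeR adjusted p = 0.0621). What the replicate numbers stand for was not tested, and both Rpl22l1 and Rps6 share most of their words with other transcripts (61.6% and 84.6%).

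**Figure D5:**
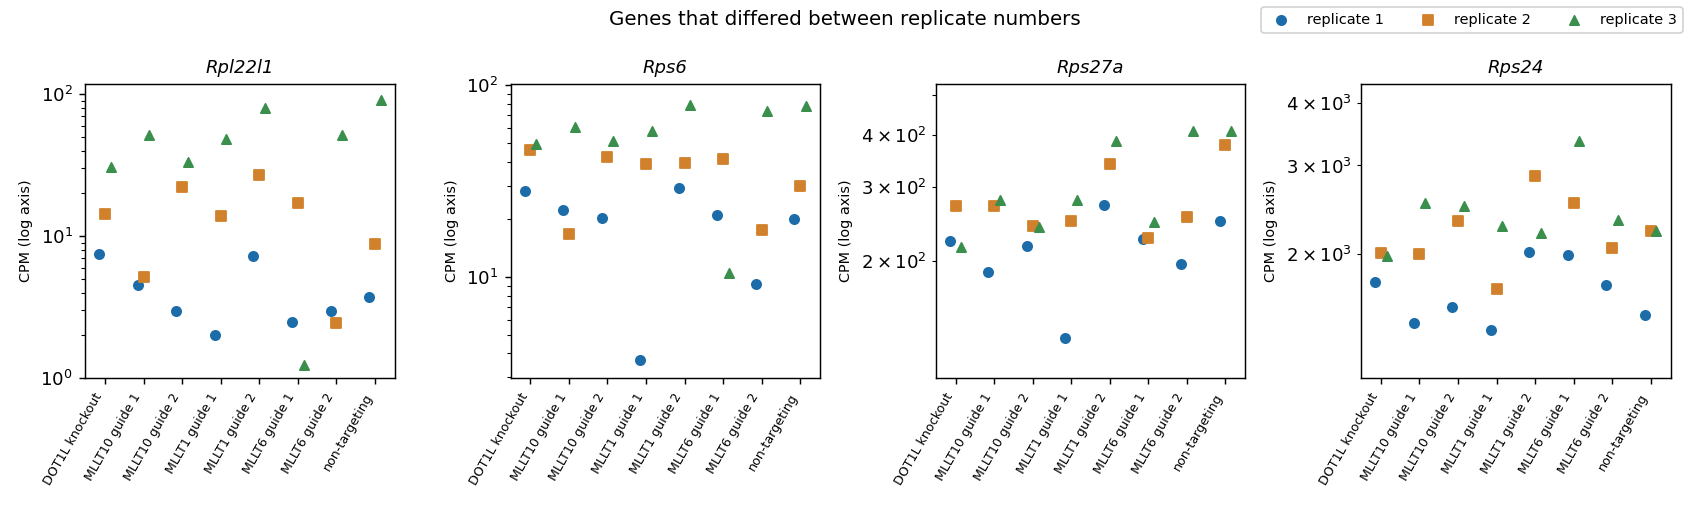
CPM on a log axis in every library for 4 genes that were lower in replicate 1, with groups along the axis and replicate numbers as symbols. For Rpl22l1 the replicate 1 libraries lie at 2.02 to 7.43 CPM in every group, and the replicate 3 libraries lie at the top of their group except in MLLT6 guide 1, where the value is 1.24 CPM.

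The family's median spread between replicates was smaller than that of all tested genes. The within-group SD of a ribosomal protein gene on the log2 scale had a median of 0.216, against 0.322 for all tested genes. These sets were not matched for level, and the part of level in the difference was not tested. The SD was under 0.3 in 54 of 80 genes. It ran from 0.088 for Rps28 to 1.145 for Rps6 and 1.904 for Rpl22l1. Rps14, at 0.529, and Rps27rt, at 0.531, also varied more than most. Within a library, the genes scattered around the control mean most widely in the MLLT6 guide 1 replicate 3 library (SD 0.791) and in the library labelled MLLT1 guide 1 replicate 1 (SD 0.597), the same libraries that stood apart over all genes.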

How the data were processed

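The authors deposited raw read counts for 43629 Ensembl genes in 24 libraries. Bcl2fastq, HISAT2, HTSeq and DESeq2 were used with mm10, per the submitters' processing notes. Not given in the sources used here are versions, annotation, strand and the handling of reads with several matches. Of the identifiers, 42462 matched a GENCODE M21 (GRCm38) symbol and 1167 did not. Members and gene lists were chosen with earlier results of these data known, so no list was tested as a set.

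The deposited counts were tested with edgeR 4.0.16 (R 4.3.3): TMM scaling, edgeR's filter on low counts (10578 genes), 1 quasi-likelihood fit of 24 libraries in 8 groups, Benjamini-Hochberg adjustment over all tested genes. Guides to a gene were averaged. The SE of a log2 fold change was worked back from the F statistic and is approximate. Libraries of a group differed by more than sampling noise (chi-square per gene 4.77 to 34.31), so all were counted. Same-numbered libraries deviated together, with each correlation over 0.1, in 6 of 28 pairs of groups. The control was in 3 of these, with MLLT10 guide 1, MLLT1 guide 2 and MLLT6 guide 2, but not with DOT1L or the other guide of each gene, so the numbers were not taken as pairs. Alternatives were no filter, DESeq2 1.42.0 size factors, TMM without the ribosomal protein genes, a replicate block, the DESeq2 test, compared groups alone, and leaving out libraries. The fits were tested on simulated data. Named genes were the called members (up to 10 each way; the 3 largest values each way where fewer than 3 passed), the 4 highest and lowest levels, up to 4 calls between knockouts, paralogs, members with extra roles and up to 4 genes per list. Some members this rule named are not reported here. Start windows came from RefSeq, GRCm38.p6. Other software was matplotlib 3.10.9, scipy 1.17.1, pandas 2.3.3 and Python 3.11.15.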

Additional observations from a re-analysis of the deposited data

Results flagged for a closer look

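Of the ribosomal protein genes called when the knockouts were compared directly with edgeR's quasi-likelihood test, 3 large-subunit genes are given here. Against the DOT1L knockout, 5.00% of tested members were called higher with MLLT10 guides and 11.2% with MLLT6 guides. Neither share exceeded that of all tested genes (10.9% and 14%). Rpl14 was higher by 0.54 on the log2 scale with MLLT10 guides and by 0.58 with MLLT6 guides than in the DOT1L knockout. Rpl3 was higher by 0.44 with MLLT10 guides and by 0.52 with MLLT6 guides. Rpl21 was higher by 0.39 with MLLT10 guides and by 0.54 with MLLT6 guides. Both sets of differences use the same 3 DOT1L libraries. Of the 6 calls of Rpl14, Rpl3 and Rpl21, those of Rpl14 (MLLT10 and MLLT6) and Rpl21 (MLLT6) held in 16 of 16 alternative settings.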

How the results depend on the processing

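No direction turned in any alternative for the calls and counts followed, except the MLLT6 median (-0.144 to 0.032 over left-out libraries). The calls of Rpl12, Rpl19, Rpl36a, Rps26 and Rps10 for MLLT6 against DOT1L were not followed through the alternatives. DESeq2 size factors and TMM without the ribosomal protein genes moved no count by over 1.5 times. For DOT1L against the control (7 calls), the DESeq2 test called 14, compared groups alone 22, leaving out both libraries that stood apart 11, and leaving out 1 library 1 to 14, with a median of -0.392 to -0.243. With no filter, calls against the control were 3 for MLLT10, 4 for libraries labelled MLLT1 and 1 for MLLT6, and 1 for MLLT10 against MLLT6, 5 for MLLT1 against MLLT6 and 2 for MLLT6 guide 2 against guide 1. MLLT1 against the control (2) became 0 with compared groups alone and 0 to 2 without 1 library (median -0.282 to -0.130). MLLT6 against DOT1L (9) became 15 with the DESeq2 test, 18 with compared groups alone and 4 to 18 without 1 library. MLLT1 against MLLT6 (0) became 5 with the DESeq2 test and 0 to 4 without 1 library, and MLLT6 guide 2 against guide 1 became 1 with the DESeq2 test. MLLT10 against DOT1L (4) ranged from 1 to 4 without 1 library, and replicate 1 against 2 and 3 (6) from 4 to 11. The MLLT10 median ranged from -0.221 to -0.035. With the replicate number as a block, calls were 9 for DOT1L against the control, 14 for MLLT6 against DOT1L and 2 for MLLT1 against MLLT6; the shared numbers alone do not pair the libraries. The cause of these shifts was not tested. Counts under the alternatives, here and above, are of members alone. The share of all tested genes called in the same setting is not given beside them, so they do not set the family against other genes. Depth limits the low genes: Rpl23a, with 164 counts in all libraries, could be tested only with no filter.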
